A study of Mus musculus with 4 samples.

Results

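The 10 Notch genes described here were measured in cells sorted as satellite cells, the stem cells of skeletal muscle, from the hindlimbs of young and aged mice. They are the receptors Notch1, Notch2 and Notch3, the ligands Dll1, Dll4 and Jag1, the DNA-binding effector Rbpj, and the target genes Hes1, Hey1 and Heyl. They were taken by name as members of the pathway, with earlier results of these data known, and every probe set that the platform annotation assigns to exactly 1 of them was used. This gave 20 probe sets among the 34945 that name 1 gene, and 10 genes among 18193. The young group held 2 pools of mice aged 3 to 6 months and the aged group 2 pools aged 20 to 25 months, all C57BL/6J according to the sample labels, with no genotype or treatment other than age. Cells of each pool were sorted for surface syndecan-4 and hybridised to 1 Affymetrix expression array. The series text puts 4 to 8 mice in a pool and the sample text 6 to 8, so the spread between pools is the only error measured and single mice are averaged.

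Notch signalling passes between touching cells. A Delta or Jagged ligand on one cell pulls on a Notch receptor of its neighbour, the receptor is cut inside the membrane, and the freed intracellular part enters the nucleus, where it joins Rbpj and switches on repressors of the Hes and Hey families. In skeletal muscle this pathway is known for keeping satellite cells quiescent and undifferentiated, and mice that lack Rbpj in these cells lose the stem cell pool.

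The deposited values are taken as log2 values, and each is relative to the median of its probe set over the 4 arrays. A value of 1 on one array therefore means a signal 2-fold above that median, and nothing can be said about which Notch gene was the more abundant. With 4 arrays the middle pair of values always lies at equal distance from 0, so differences between arrays carry the information. The same centring prevents a check on whether a marker was present or absent. Pax7, the transcription factor that marks satellite cells, had values of -1.39 and -1.24 in the young pools and 1.08 and 0.90 in the aged pools. Other satellite cell markers did not all share this direction. Of the 13 listed, Pax7 included, 8 had a higher mean in the aged pools and 5 a lower one, with a median difference of 0.09. The number of arrays limits the precision of every value below.

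Upstream sequence was matched for 7 of the 10 genes in RefSeq (GRCm38.p6), and was not found in that table for Hes1, Hey1 and Heyl. The 250 bases before the annotated start are shown for Jag1, Notch3 and Rbpj, the 3 genes with the largest differences between ages in the values that follow. Capitals mark TGGGAA, the core of the sequence that Rbpj binds, read on either strand (as TTCCCA on the other), and CAGCTG, an E-box of the kind bound by myogenic factors, which reads the same on both strands. The 2 motifs do not overlap in these windows.
Jag1, minus strand, chr2:137116521-137116770: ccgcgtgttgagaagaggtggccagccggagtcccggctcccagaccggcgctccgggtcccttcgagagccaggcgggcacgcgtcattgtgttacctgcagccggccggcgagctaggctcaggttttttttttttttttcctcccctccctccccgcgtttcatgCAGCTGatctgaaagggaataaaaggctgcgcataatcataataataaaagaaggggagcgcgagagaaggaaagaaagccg
Notch3, minus strand, chr17:32166891-32167140: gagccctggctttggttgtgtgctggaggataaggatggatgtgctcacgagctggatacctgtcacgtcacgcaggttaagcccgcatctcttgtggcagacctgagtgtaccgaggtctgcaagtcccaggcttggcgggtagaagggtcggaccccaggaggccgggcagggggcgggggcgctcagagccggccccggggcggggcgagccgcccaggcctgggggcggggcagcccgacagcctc
Rbpj, plus strand, the first of its 2 annotated starts, chr5:53590096-53590345: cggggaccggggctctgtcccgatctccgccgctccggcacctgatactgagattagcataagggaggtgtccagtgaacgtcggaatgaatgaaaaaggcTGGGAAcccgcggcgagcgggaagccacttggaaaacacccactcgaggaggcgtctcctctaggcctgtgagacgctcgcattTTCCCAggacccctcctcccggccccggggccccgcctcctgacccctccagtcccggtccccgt

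The Rbpj window held the core 2 times, once on each strand, and the Jag1 window held 1 E-box whose first base lies 82 bases before the start. The Notch3 window held neither. Among 32851 RefSeq windows of the same length, 21.6% held TGGGAA on either strand and 13.0% held CAGCTG, so each of these matches is a common one, and a match is a description of the letters and not of binding.

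None of the 10 genes passed an adjusted p of 0.05 between ages with limma, and 0% of all 18193 genes did. At an unadjusted p under 0.05 there was 1 gene, Jag1, where 9.04% of all genes had such a p. In this design of 2 pools against 2, an exact permutation test of a single gene cannot give a two-sided p below 0.333. Of the 10 genes, 7 had a positive difference (aged minus young) and 3 a negative one, against 53.8% and 46.2% of all genes, with a median of 0.16 against 0.05 over all genes. The pools of the 2 ages did not overlap for 4 of the 10, against 36.8% of all genes. These were Jag1, Notch3 and Hes1, higher in both aged pools (19.9% of all genes), and Rbpj, lower in both (16.9%). A share of 4 in 10 is near that background, so the group as a whole did not stand apart by this count. Without young replicate 2 the median of the 10 genes was -0.27, and without young replicate 1 it was 0.41.

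**Figure D1:**
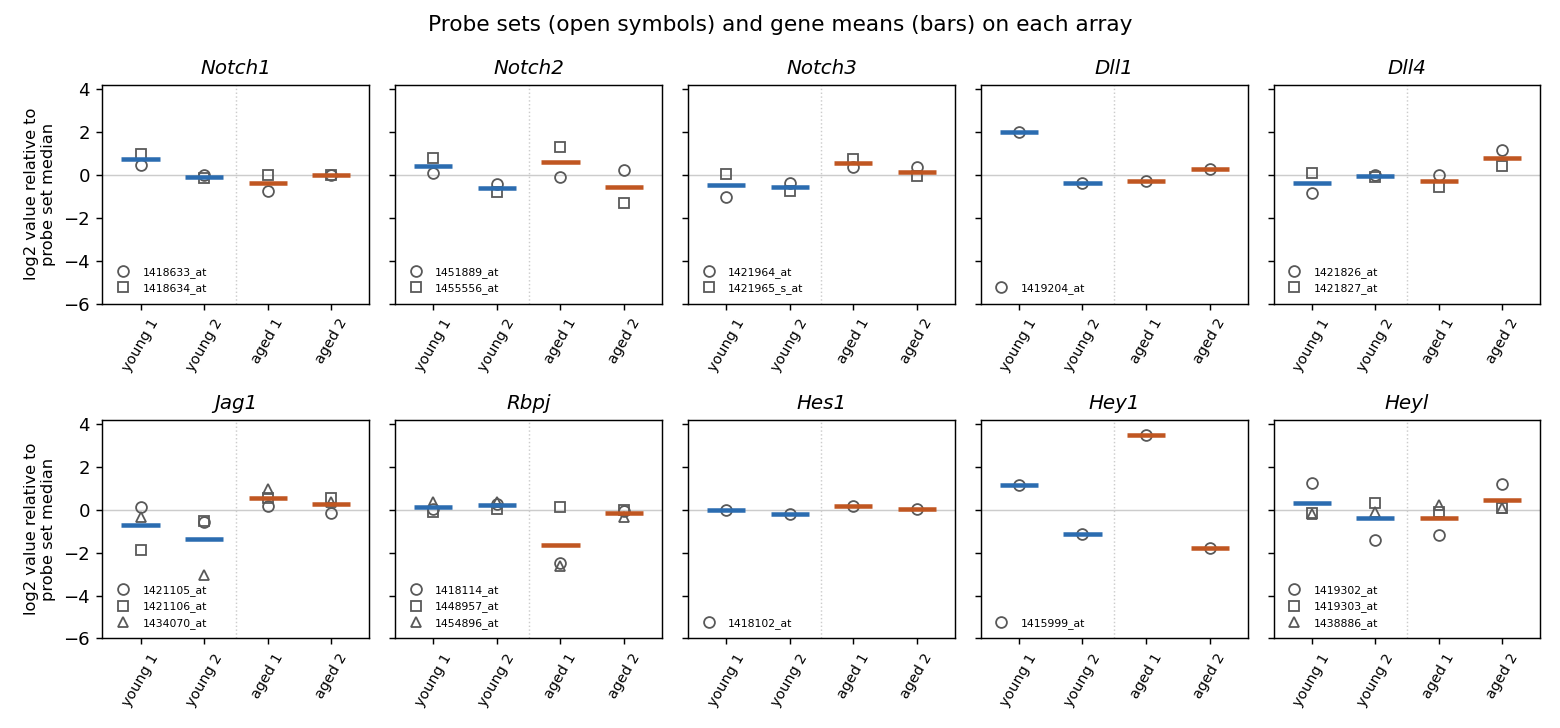
Values of the 10 Notch genes on each array, as log2 relative to the probe set median over the 4 arrays. Open symbols are single probe sets and bars are gene means (blue young, orange aged). Jag1 and Notch3 lie higher in both aged pools, Rbpj is low in aged pool 1 alone on 2 of its 3 probe sets, and Hey1 is high in the pools numbered 1 at both ages.

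Among the receptors, Notch3, which is prominent in mural cells of vessels and is also expressed by satellite cells, was the one whose ages did not overlap. Its gene means were -0.48 and -0.55 in the young pools and 0.57 and 0.15 in the aged pools. Both young gene means lay below both aged ones. The young means were close together, although the probe sets behind them ordered the young pools oppositely, with -1.02 and -0.37 on 1421964_at and 0.06 and -0.73 on 1421965_s_at. The difference was 0.88 ± 0.38 (standard error of the fit, n = 2 pools per age), 1.84-fold, with a 95% interval from -0.06 to 1.82 (limma, unadjusted p = 0.0612, adjusted p = 0.590). Its 2 probe sets had the same sign, 1.08 for 1421964_at and 0.68 for 1421965_s_at, though on the latter the ages overlapped, with 0.06 in young pool 1 and -0.06 in aged pool 2. The difference stayed positive in all 12 alternative settings run, from 0.67 to 1.09, with adjusted p-values from 0.485 to 0.858.

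Notch1, the receptor most often linked to satellite cell activation, had gene means of 0.73 and -0.07 in the young pools and -0.38 and 0.01 in the aged pools. Young pool 1 was the highest and aged pool 1 the lowest, and the ages overlapped. The difference was -0.51 ± 0.44, with an interval from -1.62 to 0.59. Without young replicate 1 it was -0.11, and without aged replicate 1 it was -0.32. Both probe sets were negative, at -0.59 (1418633_at) and -0.43 (1418634_at). On the former, young pool 1 stood at 0.45 and aged pool 1 at -0.73. On the latter they stood at 1.00 and -0.02.

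Notch2, a receptor that satellite cells also express, gave 0.43 and -0.59 in the young pools and 0.60 and -0.55 in the aged pools. The values ordered the pools by their number and not by age. Its difference between ages was 0.11 ± 0.58, with an interval from -1.35 to 1.56. The pattern came from 1455556_at, which stood at 0.77, -0.77, 1.29 and -1.32 in young 1, young 2, aged 1 and aged 2. The other probe set, 1451889_at, stood at 0.08, -0.41, -0.08 and 0.22 in the same order and did not follow the number.

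Jag1, a ligand of the Jagged family, had the largest age difference of the 10. Its gene means were -0.70 and -1.38 in the young pools and 0.56 and 0.25 in the aged pools. Every aged value lay above every young one. The difference was 1.44 ± 0.42, or 2.72-fold, with an interval from 0.39 to 2.49 (limma, unadjusted p = 0.0157, adjusted p = 0.367), and 1290 of the 18193 genes had a larger one in either direction. It remained positive in all 12 alternative settings, from 0.91 to 2.37, with adjusted p-values from 0.330 to 0.743.

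The 3 probe sets of Jag1 had the same sign but not the same size. On 1421106_at the values were -1.88 and -0.53 in the young pools and 0.53 in both aged pools, a difference of 1.73 ± 0.59. On 1434070_at the values were -0.36 and -3.04 in the young pools and 0.98 and 0.36 in the aged pools, a difference of 2.37 ± 0.98. Young pool 2 was the extreme on that probe set, and without it the difference was 1.03. On 1421105_at they were 0.15 and -0.57 in the young pools and 0.17 and -0.15 in the aged pools. There the ages overlapped, the difference was 0.22 ± 0.47, and it was -0.14 without young replicate 2. The range of 2.15 between the probe sets of Jag1 exceeded that of most genes with several probe sets (percentile 85.2, median range 0.93). A range tends to grow with the number of probe sets, and the genes compared were not matched for that number.

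Dll1, a Delta ligand displayed in developing and regenerating muscle, was measured by 1 probe set and stood at 2.02 and -0.37 in the young pools and -0.29 and 0.29 in the aged pools. Young pool 1 lay far above the other 3. The difference of -0.82 ± 0.82 had an interval from -2.86 to 1.21 and turned to 0.37 without young replicate 1.

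Dll4, the Delta ligand of vascular sprouts that muscle fibres also display, had gene means of -0.38 and -0.04 in the young pools and -0.28 and 0.79 in the aged pools. Aged pool 2 was high and the rest overlapped. The difference was 0.47 ± 0.49, with an interval from -0.75 to 1.69, and it was -0.07 without aged replicate 2. Its probe sets differed by 1.01 (1421826_at) and -0.07 (1421827_at).

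**Figure D2:**
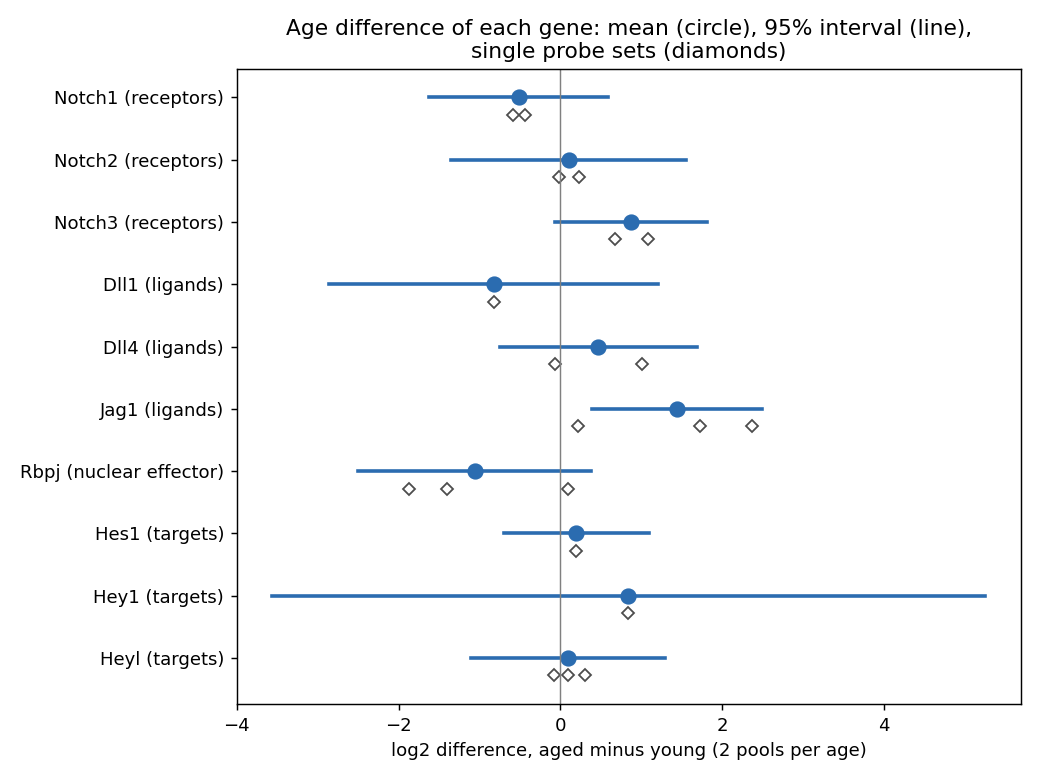
Difference between ages (aged minus young, log2) for each gene as a circle with its 95% interval from limma, n = 2 pools per age, and for single probe sets as diamonds. The interval excludes 0 for Jag1, at 0.39 to 2.49 and before any adjustment for the number of genes, and Hey1 has the widest one.

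Rbpj, the DNA-binding partner of every Notch receptor, had gene means of 0.11 and 0.21 in the young pools and -1.66 and -0.14 in the aged pools. The ages did not overlap, but aged pool 2 lay much nearer to the young pools than to aged pool 1. The difference was -1.06 ± 0.58, or 2.08-fold lower, with an interval from -2.50 to 0.38 (limma, adjusted p = 0.710, and from 0.451 to 0.908 in the alternatives). Without aged replicate 1 it was -0.30, and without aged replicate 2 it was -1.82.

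The low value in aged pool 1 was seen on 2 of the 3 Rbpj probe sets. There 1418114_at stood at -2.48 and 1454896_at at -2.64, against -0.04 and -0.36 in aged pool 2. The young pools lay between 0.04 and 0.38 on both. On 1448957_at aged pool 1 stood at 0.15, the highest of the 4 arrays, and the difference between ages was 0.09 ± 0.40. The probe sets of Rbpj thus differed in sign, as did those of 4 of the 7 members with several probe sets, against 57.4% of all such genes.

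Hes1, the best known target gene, was the steadiest of the 10. It stood at -0.02 and -0.18 in the young pools and at 0.18 and 0.02 in the aged pools. The ages did not overlap, but all 4 values lay within 0.2 of 0. The difference was 0.20 ± 0.36 with an interval from -0.69 to 1.10. This interval leaves room for a change of about 2-fold upward, so it does not show that Hes1 was the same at both ages.

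Hey1, a repressor induced by Notch that satellite cells need, together with Heyl, to remain quiescent, varied more between pools than nearly every other gene. It stood at 1.15 and -1.15 in the young pools and at 3.49 and -1.80 in the aged pools. Both pools numbered 1 were high and both pools numbered 2 were low, so the ages overlapped fully. The mean difference between numbers was 3.79, against 0.84 ± 1.76 between ages (interval -3.56 to 5.25). Of the 18193 genes, 6 had a larger spread within ages and 6 had a larger difference between numbers. The same split by number, with no overlap, was seen for 3 of the 10 genes, against 36.6% of all genes. Beside Hey1 these were Notch2, also higher in the pools numbered 1 (14.1% of all genes), and Dll4, lower in them (22.5% of all genes). For Dll4 the split was in the gene mean only, and neither of its probe sets separated the numbers. The age difference of Hey1 was 3.49 without aged replicate 2 and -1.80 without aged replicate 1, so its sign rested on single pools. Only 1 probe set measures Hey1, so no second one bears on this pattern.

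Heyl, the other Hey family target measured here, showed no common direction. Its gene means were 0.30 and -0.40 in the young pools and -0.37 and 0.46 in the aged pools. One pool of each age was high and one was low. The difference was 0.10 ± 0.48, with an interval from -1.10 to 1.30. Its probe set 1419302_at swung widely, at 1.24, -1.41, -1.20 and 1.20 in young 1, young 2, aged 1 and aged 2. The other 2 stayed within 0.3 of 0, and on 1438886_at the aged pools (0.20 and 0.10) lay above the young (-0.21 and -0.10). By their gene means the 3 target genes shared no pattern over the arrays. Hey1 followed the pool number, Heyl crossed it through 1419302_at, and Hes1 barely varied. All 3 had a positive difference between ages, as did 53.8% of all genes, and each interval included 0.

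Across probe sets, 12 of the 20 had a positive difference and 8 a negative one, against 52.7% and 47.3% of all probe sets. The ages did not overlap for 7 of them, against 34.6% of all. Of these, 5 were higher in both aged pools (18.4% of all) and 2 were lower (16.3%). With limma on probe sets 0 of the 20 passed an adjusted p of 0.05 (0% of all probe sets) and 1, 1421106_at of Jag1, had an unadjusted p under 0.05 (7.94% of all).

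**Figure D3:**
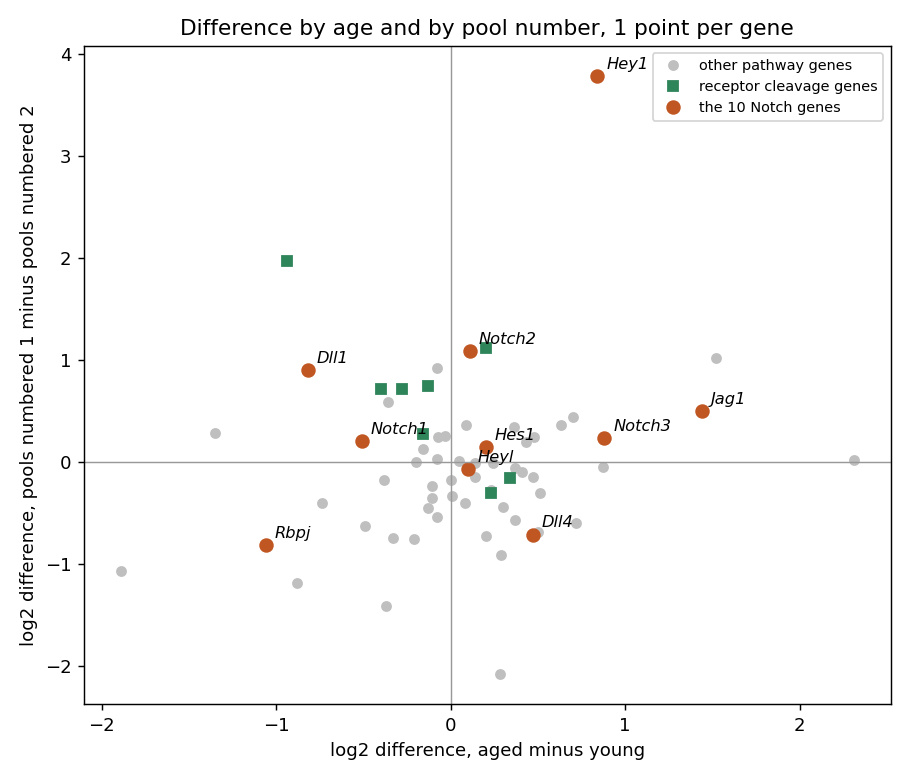
Log2 difference by age (aged minus young, horizontal) against log2 difference by pool number (pools numbered 1 minus pools numbered 2, vertical), 1 point per gene. Jag1 and Notch3 lie to the right, Rbpj to the left, and Hey1 stands alone at the top with 3.79.

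The rest of the pathway was described with 62 other genes listed by role, of which 56 were measured. With limma 0 of the 56 passed an adjusted p of 0.05. At an unadjusted p under 0.05 there were 1 higher, against 2.85% of all genes, and 2 lower, against 6.19%. Of the 56, 30 had a positive difference and 26 a negative one, with a median of 0.07. The ages did not overlap for 12 on the higher side, against 19.9% of all genes, and for 5 on the lower side, against 16.9%.

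Pax7 was the one with a positive difference and a p under 0.05, at 2.31 ± 0.36 (limma, adjusted p = 0.150). It was listed because Notch maintains it in satellite cells. Its list, muscle genes tied to Notch, otherwise holds collagen V and VI chains, Calcr and Megf10, and had 6 of 8 positive differences with a median of 0.39. The pair with a negative difference and a p under 0.05 act in the nucleus. Kat2b, an acetyltransferase that assists the Notch complex, stood at 0.49 and 0.88 in the young pools and -2.07 and -0.33 in the aged pools, a difference of -1.89 ± 0.64 (adjusted p = 0.455). Like Rbpj, it was lowest in aged pool 1. Its difference was -1.02 without aged replicate 1 and -2.76 without aged replicate 2. Cir1, a corepressor that binds Rbpj, stood at 0.46 and 0.60 in the young pools and -0.46 and -1.18 in the aged pools, a difference of -1.35 ± 0.42 (adjusted p = 0.399).

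Beyond these 3 genes, no gene of the role lists had an unadjusted p under 0.05. The other ligands had 4 of 5 positive differences, the largest that of Dll3 (0.50 ± 0.48), a ligand that mainly restrains the pathway. The other receptor, Notch4, stood at -0.13 ± 0.43. Of the genes for ligand endocytosis 2 of 4 were positive, with Mib1, the ligase that draws ligands into the cell, at 0.30 ± 0.40. Of the receptor glycosylation genes 2 of 5 were positive, and the Fringe enzyme Mfng stood at -0.74 ± 0.40, with no overlap of the ages.

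Of the receptor cleavage genes 3 of 8 were positive, with the gamma-secretase subunit Psenen at -0.94 ± 0.92. Coactivators had 2 of 5 positive differences and corepressors 1 of 4. Inhibitors and turnover genes had 6 of 10, with the feedback inhibitor Nrarp, itself a target, at 0.70 ± 0.49. Without aged replicate 1 Nrarp stood at 0.15. The other Hes and Hey factors had 4 of 6, with Hes2 at -0.88 ± 0.62. Without 1 array the differences ran from -1.54 to -0.21 for Hes2, from 0.03 to 0.57 for Mib1 and from -1.01 to -0.47 for Mfng. They changed sign for Dll3, Notch4 and Psenen.

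Marker lists of 8 cell types are described by their counts, with no test of a list. In bulk RNA, fewer cells of a type and less RNA per cell cannot be told apart. Pericyte and smooth muscle markers were positive in 12 of 12 cases (median 0.81), and their list mean was -0.34 and -0.56 in the young pools against 0.79 and 0.44 in the aged pools. Their largest differences were those of Rgs5 (2.93 ± 0.58) and Kcnj8 (1.78 ± 0.69). From young 2, the lowest, through young 1 and aged 2 to aged 1, these list means follow the same order over the 4 pools as the gene means of Notch3 and of Jag1. The means of the T cell list and the values of Hes1 have that order too, and its share among all genes was not counted. On single probe sets that order did not always hold. Young 1 lay below young 2 on 1421964_at of Notch3 (-1.02 and -0.37) and on 1421106_at of Jag1 (-1.88 and -0.53). The part of the pericyte and smooth muscle list in the Notch3 and Jag1 values was not tested.

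Endothelial markers, whose cells express Dll4, Notch1, Jag1 and Hey1, were negative in 11 of 14 cases (median -0.37). Their list mean was 0.27 and 0.14 in the young pools and -0.21 and -0.48 in the aged pools. The largest differences were those of Tie1 (-2.30 ± 0.89) and Emcn (-1.66 ± 0.95). Their part in the Notch gene values was not tested.

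Macrophage and monocyte markers were negative in 8 of 11 cases (median -1.07), with list means of 0.52 and 0.07 in the young pools and -0.62 and -0.33 in the aged pools. Adgre1 (-2.42 ± 0.36) and C1qa (-2.09 ± 0.50) differed most. The other 3 genes were positive, the largest being Ptprc (1.94 ± 0.58), higher in both aged pools. This list, like Rbpj, had its lowest value in aged pool 1, and its part in the Rbpj value was not tested.

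Of the other lists, mature muscle fibre markers were negative in 16 of 16 cases (median -2.84, Myoz1 -4.55 ± 0.49 and Ryr1 -4.45 ± 0.42). T cell markers were positive in 9 of 9 (median 1.43, Cd3g 4.15 ± 0.47 and Cd3d 4.11 ± 0.50). Fibro-adipogenic progenitor markers were positive in 9 of 10 (median 0.71, Mgp 3.10 ± 0.94 and Lum 1.28 ± 0.65) and Schwann cell markers in 5 of 6 (median 0.68, Pmp22 1.29 ± 0.71 and Sox10 1.04 ± 0.42). Satellite cell markers were positive in 8 of 13 (median 0.09, Myf5 2.56 ± 0.63 beside Pax7). None of these single genes passed an adjusted p of 0.05 with limma, and the part of these lists in the Notch gene values was not tested.

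**Figure D4:**
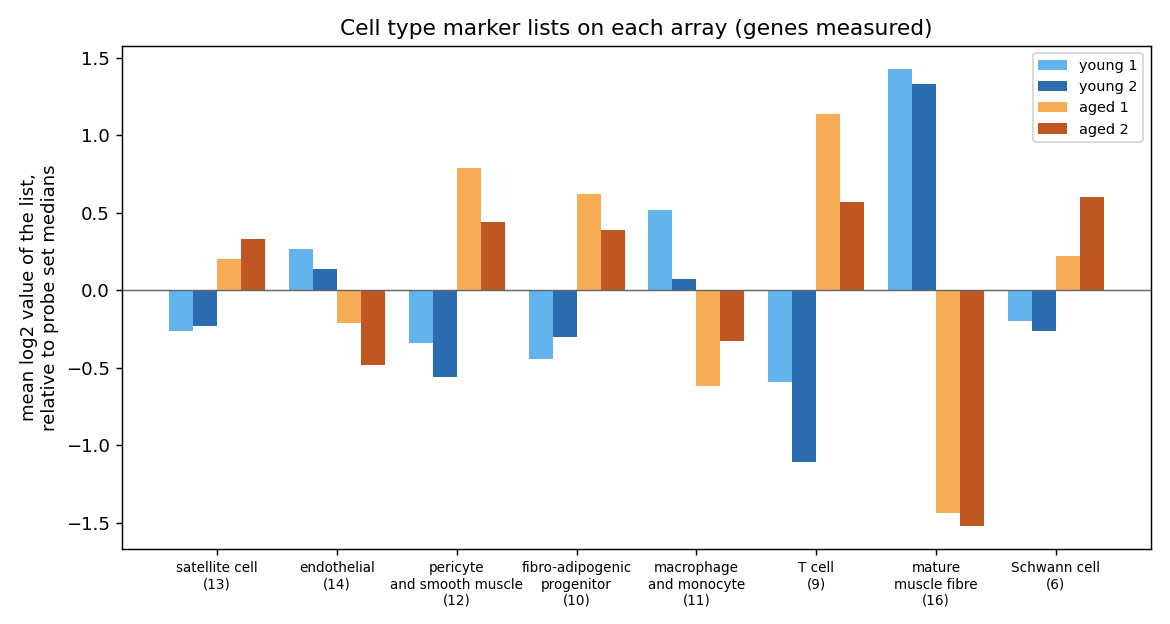
Mean log2 value of each cell type marker list on each array, relative to probe set medians, with the number of genes measured in brackets. Fibre markers are high in both young pools (1.43 and 1.33) and low in both aged pools (-1.44 and -1.52), and pericyte and smooth muscle markers lie the other way.

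The genes nearest to a Notch gene over the 4 arrays were sought for the 4 Notch genes whose ages did not overlap. They were sought among the 145 measured genes of the pathway and marker lists, by the root mean square difference of values. Notch genes taken for this reason tend to have neighbours with the same age direction, and the lists were chosen with earlier results known. The list of a neighbour therefore does not tell which cells expressed the Notch gene. Nearest to Notch3 were Mylk (0.13) and Cspg4 (0.14), both from the pericyte and smooth muscle list. Nearest to Jag1 were Sdc4 (0.29), which encodes the protein used for the sort, and Gsn (0.32). Nearest to Rbpj were the macrophage genes Csf1r (0.24) and C1qb (0.35). Csf1r stood at 0.19, 0.48, -1.62 and -0.53 in young 1, young 2, aged 1 and aged 2. The likeness is to the gene mean of Rbpj, whose probe set 1448957_at was highest in aged 1, at 0.15. Hes1, with its small values, was nearest to Pofut1 and S100b (0.10 each). With 4 arrays such neighbours are many. Of all genes, 18 lay nearer to Notch3 than Mylk did and 31 nearer than Cspg4. For Jag1, 26 lay nearer than Sdc4 and 47 nearer than Gsn. For Rbpj, 31 lay nearer than Csf1r and 91 nearer than C1qb. For Hes1, 250 lay nearer than Pofut1 and 296 nearer than S100b.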

How the data were processed

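Expression was measured on 4 Affymetrix arrays, 2 pools per age. Per the labels' protocols, 2 rounds of T7-based amplification preceded biotin labelling of the RNA. The authors deposited 1 table with 45101 probe sets, whose values are read as log2. Its log base, background correction, probe summary and scaling of the arrays were not given in the sources used here, so every fold assumes base 2. Probe set medians over the arrays are 0 within 5e-07, and array medians ran from -0.07 to 0.05.

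Names of probe sets come from the platform annotation. Those with several genes (932) or none (9160) and 64 controls were left out, and a gene is the mean of its probe sets. Ages were compared over all genes and over all probe sets with limma 3.58.1 in R 4.3.3 (lmFit, eBayes without a trend, two-sided, Benjamini-Hochberg adjustment, threshold 0.05), with 2 residual and 3.56 prior degrees of freedom for genes. A ± is the standard error of that fit. The pipeline was tested on simulated data. Figures were drawn with matplotlib 3.10.9.

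The Notch genes and all lists were chosen with earlier results of these data known, so no test over a list was made. Named are all 10 Notch genes. Of each pathway list, the genes with an unadjusted p under 0.05 and the one with the largest difference are named. Of each marker list, the 2 with the largest difference are named, and for Notch genes whose ages do not overlap, the 2 nearest list genes. Ptprc is named besides, as a large difference against the direction of its list. Of the 62 other pathway genes, 6 had no probe set that names 1 gene. Tried as alternatives were 2 other scalings, 3 rules for joining probe sets, 2 variance models, the replicate number as a block, all non-control probe sets, and leaving out each array.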

Additional observations from a re-analysis of the deposited data

How the results depend on the processing

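No Notch gene passed the adjusted threshold in any of the 12 alternatives run, nor any of the 20 probe sets in those run on probe sets. The lowest adjusted p of a Notch gene was 0.330. Jag1, Notch3, Hes1, Rbpj and Notch1 kept their sign in all 12. Under quantile normalization the Notch2 probe set 1455556_at turned from -0.02 to 0.13, and with only the most variable probe set of each gene Notch2 turned to -0.02. With a variance trend in limma 1 other pathway gene, Pax7, was called (adjusted p = 0.0342), as were 221 of all genes. That trend relates the variance of a gene to its mean value, and the mean of centred values is not an expression level. These calls are therefore not read as a result. The number of Notch genes with an unadjusted p under 0.05 (limma) was 1 in the main fit, and that gene was Jag1. It was 0 with only the most variable probe set, so Jag1 did not keep such a p there. When _x_at and _s_at probe sets were dropped it was 2, Jag1 and Notch3. With the variance trend it was again 1, but that gene was Notch3 and not Jag1. In the other gene settings on all 4 arrays the 1 gene was Jag1. Leaving out 1 array leaves a single pool at one age, so only the difference is given, which for Jag1 ran from 1.10 to 1.78.

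Leaving out 1 array at a time, the median of the 10 genes ran from -0.27 to 0.41. Differences ran from -2.02 to 0.37 for Dll1, -0.07 to 1.00 for Dll4, -0.47 to 0.69 for Notch2, -1.80 to 3.49 for Hey1, -0.31 to 0.52 for Heyl, -0.52 to 0.26 for Notch4, -0.03 to 1.03 for Dll3 and -2.06 to 0.18 for Psenen. For probe sets they ran from -1.0 to 0.14 (1418634_at), -0.01 to 0.48 (1451889_at), -1.32 to 1.29 (1455556_at), -0.56 to 0.41 (1421827_at), -0.14 to 0.58 (1421105_at), -1.24 to 1.41 (1419302_at) and -0.30 to 0.14 (1419303_at). The cause of these turns was not tested beyond the array left out.

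The replicate numbers are shared between ages, but no label says that they mark a shared day or batch. Deviations of same-numbered pools correlated at 0.138 over genes, and with 2 pairs this does not show pairing. With the replicate number as a block, 0 Notch genes and 0 of all genes passed, and the median was 0.16, as without it. The planned filter on low values could not be run, since centred values hold no level.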

Other observations

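Several genes that cut the Notch receptor followed the pool number. Of the 8 measured receptor cleavage genes, 6 were higher in both pools numbered 1 than in both pools numbered 2, where 14.1% of all genes were. This was noticed after the values were seen. The gamma-secretase subunit Psenen stood at 1.19 and 0.52 in young 1 and aged 1 against -0.52 and -1.72 in young 2 and aged 2. The protease Adam17 stood at 0.36 and 0.66 against -0.66 and -0.56. Adam10, a protease of the same list, did not follow the number, at -0.26 and 0.42 against 0.23 in both pools numbered 2. Among the Notch genes, Hey1 and Notch2 were also higher in both pools numbered 1. Dll4 was lower in them on its gene mean, but on neither of its probe sets. In the list of ligand endocytosis genes, 3 of 4 were lower in both pools numbered 1, where 22.5% of all genes were. Over all 56 other pathway genes measured, 9 were higher in both pools numbered 1 and 16 were lower. The pathway lists as a whole thus lay nearer to the shares of all genes than these single lists did. What the number stands for is not given in the sources used here.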
